A study of Mus musculus with 2 samples.

Results

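The 44 genes described here were taken by name from the 31053 genes of the count tables. They are all symbols made of Cfap and a number (26 genes), Dnah with a number and an optional letter (15 genes) or Drc with a number (3 genes), and no symbol of the form Dnai with a number was found. The names mark proteins of the axoneme, so the genes were read as candidate components of the hair cell kinocilium. The rule used symbols alone and no measured value, but it was set with earlier results of these data known.

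The study profiled single cells of the utricular sensory epithelium of wild-type mice on the C57BL/6J background. One library came from embryonic day 14 (E14) and one from postnatal day 2 (P2). The otolithic membranes were taken off, the epithelium was lifted with thermolysin, and the cells were separated with Accutase before droplet capture with 10x Genomics 3′ v3.1 chemistry. No treatment was applied. The labels do not give the number of animals pooled, and age, litter and library cannot be told apart.

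The axoneme is the microtubule core of a cilium. Outer and inner dynein arms stand along its doublets, the nexin-dynein regulatory complex ties neighbouring doublets together, radial spokes reach to a central pair, and further proteins line the inside of the microtubules. A vestibular hair cell carries a single such cilium, the kinocilium, at the tall edge of its bundle of stereocilia, where it marks the orientation of the bundle and links it to the otolithic membrane. Supporting cells carry a short primary cilium, which lacks most of this machinery. Factors of the RFX family and Foxj1 are well-known activators of such genes, RFX proteins acting through a motif called the X-box.

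Promoter sequence was read from RefSeq (GRCm38.p6) for 37 of the 44 genes, from 250 bases before to 50 bases after each start site, and 3 motifs were searched on both strands, a gene counting when any of its listed start sites had a match. The X-box was written GTNNCCNNGGNNAC, its half-site GTTGCC and the forkhead motif TGTTTAC, and the half-site may lie within an X-box. The X-box was found in 3 of the 37 (8.11%) and in 2.16% of the promoters of 27025 genes. The half-site was found in 12 of the 37 (32.4%) and in 14.1% of all genes. The forkhead motif was found in 3 (8.11%) against 4.05%. These are counts of letters and not of bound sites. The lines below give 80 bases upstream of the start site for genes whose levels are described later. They are written on the strand of the gene with the match in capitals, and the first 3 hold an X-box and the other 5 a half-site on either strand.
Cfap126 (chr1:171122930-171123009, plus strand, match at -82 of the 1 of 3 listed start sites that holds it): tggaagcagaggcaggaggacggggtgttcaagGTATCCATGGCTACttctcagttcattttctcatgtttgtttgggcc
Cfap206 (chr4:34730207-34730286, minus strand, match at -23): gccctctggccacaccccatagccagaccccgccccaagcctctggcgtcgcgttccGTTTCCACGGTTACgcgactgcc
Cfap77 (chr2:29055237-29055316, minus strand, match at -236): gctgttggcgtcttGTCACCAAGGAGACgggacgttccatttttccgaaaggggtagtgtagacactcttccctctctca
Cfap161 (chr7:83794850-83794929, minus strand, first match at -66): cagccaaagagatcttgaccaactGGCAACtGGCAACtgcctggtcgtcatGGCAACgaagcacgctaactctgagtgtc
Cfap46 (chr7:139683816-139683895, minus strand, match at -9): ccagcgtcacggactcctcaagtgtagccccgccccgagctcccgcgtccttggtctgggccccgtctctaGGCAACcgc
Cfap58 (chr19:47937616-47937695, plus strand, match at -59): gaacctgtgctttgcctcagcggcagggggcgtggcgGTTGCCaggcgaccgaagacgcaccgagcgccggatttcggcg
Dnah10 (chr5:124725005-124725084, plus strand, match at -20): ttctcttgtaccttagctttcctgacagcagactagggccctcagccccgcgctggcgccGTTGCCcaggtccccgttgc
Drc1 (chr5:30281313-30281392, plus strand, match at -11): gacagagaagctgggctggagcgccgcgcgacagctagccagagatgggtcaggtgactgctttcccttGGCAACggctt

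The E14 library held 15636 barcodes and 122892080 UMIs, and the P2 library 6251 barcodes and 57003553 UMIs. After filtering and doublet removal 10138 and 3877 cells remained, and 23 barcodes occurred in both libraries. Clusters were named from marker genes, with the 44 genes kept out of the clustering. Hair cell-like (HC-like) cells numbered 212 at E14 and 1156 at P2, supporting cell-like (SC-like) cells 823 and 693, nonsensory epithelial-like cells 1083 and 231, and mesenchymal-like cells 3545 and 30. Clusters that met no naming rule held 35.1% of cells at E14 and 45.6% at P2. All 16 hair cell markers had UMIs in HC-like cells at both ages, and 14 of them were at least 2-fold above SC-like cells at each age. These markers also served to name the clusters, so that count follows in part from the naming and is not a separate check. Levels are given as CPM, that is, a gene's UMIs in a class scaled to a class total of 1e+06, with exact 95% Poisson intervals, and ratios carry exact conditional binomial intervals. Both cover counting error only, since there is 1 library per age and hence no replicate, no test and no p-value. Counts of 3′ ends do not rank genes by transcript level, so each gene is compared with itself.

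The 44 genes were concentrated in hair cells at both ages. At E14 they summed to 2880 CPM in HC-like cells (2816 to 2944), against 314 in SC-like, 281 in nonsensory epithelial-like and 244 in mesenchymal-like cells. At P2 the sums were 3274 (3244 to 3305), 412, 394 and 528. The HC-like sum was therefore 9.17-fold the SC-like sum at E14 (8.81 to 9.54) and 7.95-fold at P2 (7.72 to 8.18). Of the HC-like UMIs of these genes at P2, 34.6% came from Cfap36, Cfap126 and Cfap45. Cfap20, Cfap36 and Cfap97 supplied most of the signal outside hair cells. Without them, a choice made after their values were seen, the ratio was 24.4 at E14 (22.8 to 26.1) and 15.1 at P2 (14.4 to 15.7). The E14 ratio was not stable over the alternatives. It was 4.80 with all doublets kept, when 376 E14 cells were HC-like, and 5.47 when hair cells were gated on 3 of 6 marker genes. The causes were not tested.

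**Figure D1:**
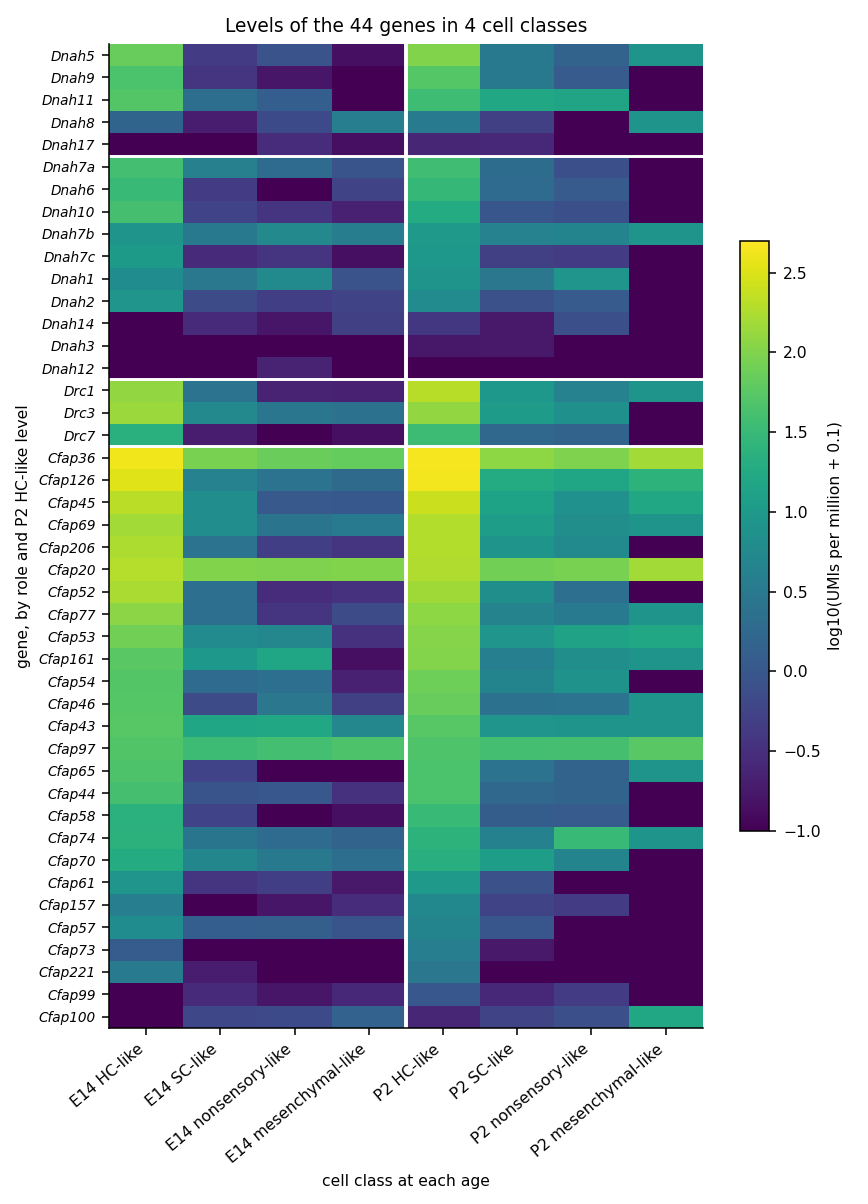
Levels of the 44 genes (rows, grouped by role and ordered by P2 HC-like level) in 4 cell classes at each age (columns), as log10 of CPM plus 0.1. The HC-like columns are the brightest at both ages for most genes, Cfap36, Cfap20 and Cfap97 are bright in all classes, and the P2 mesenchymal-like column rests on 30 cells.

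Gene by gene, a ratio was read where both classes together held at least 20 UMIs, and called where it reached 2-fold. At E14, 32 of 34 genes were at least 2-fold higher in HC-like than SC-like cells, where 16.9% of all genes tested were. At P2 it was 36 of 38, where 19.7% of all genes were. The median ratio was 29.0 at E14 and 16.2 at P2, and that of all genes was 1.01 at both. The counting interval lay wholly above 2 for 30 and 33 of the genes. Against nonsensory epithelial-like cells, 31 of 34 genes were called at E14 (all genes 17.4%) and 35 of 38 at P2 (all genes 22.1%), with medians of 41.9 and 16.7. Mesenchymal-like cells gave 32 of 36 at E14 (all genes 22.6%, median of the 36 genes 152). At P2 they gave 18 of 38 (all genes 16.3%, median 1.65), but 41 of the 44 genes had 3 or fewer UMIs in those 30 cells, so most differences were not detectable at this depth, and 8 genes were called after thinning each cell to 4000 UMIs. The gene called in the other direction against mesenchymal-like cells was Dnah8, at 0.402 times their level at E14 (0.107 to 1.06) and 0.387 times at P2 (0.0658 to 15.6, against 1 UMI). Where the lower class had no UMI, 3 counts over the class stood in for it.

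Single cells showed the same separation. With each cell thinned to 4000 UMIs, the median number of the 44 genes found per cell was 8 in HC-like cells at E14 and 9 at P2, and 1 in SC-like cells at both. At least 5 were found in 73.7% and 88.6% of HC-like cells, and in 0.340% and 1.69% of SC-like cells. Thinning left out 22 and 314 of the HC-like cells and 234 and 43 of the SC-like cells. Without thinning the medians were 16 in HC-like cells at both ages and 2 and 3 in SC-like cells. Red blood cell-like, immune-like and endothelial-like clusters at E14, which have no motile cilium, gave a thinned median of 0 and no cell with at least 5. This was 0 of 183, which allows a share of up to about 1.64%, taken as 3 over 183 and not as an exact interval. Thinning left out 249 of the 432 cells of these clusters, so the 183 are the deeper ones. Summed over all 432 cells, Cfap20 was still at 65.6 CPM, Cfap36 at 28.4 and Cfap97 at 24.1. The median depth was 14111 UMIs in E14 HC-like cells and 2804 in these cells. Cfap126 was found in 54.7% of thinned HC-like cells at E14 and 73.4% at P2, in 1.36% and 7.23% of SC-like cells, and in 2.19% of these cells of other types, so its E14 SC-like share was at background.

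The outer dynein arm heavy chains, the motor subunits that drive ciliary beating, include Dnah5, the heavy chain found along the whole cilium. Dnah5 had 185 UMIs in E14 HC-like cells (68.2 CPM) and 4 in SC-like cells (0.362), a ratio of 189 (72.5 to 700). At P2 it had 1334 (99.8) and 38 (3.03), a ratio of 32.9 (23.9 to 46.8). Dnah9, the partner of Dnah5 in the distal cilium, was at 45.3 and 0.271 CPM at E14, the latter being 3 UMIs, a ratio of 167 (55.9 to 822). At P2 it was at 53.2 and 3.03, a ratio of 17.6 (12.7 to 25).

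Dnah11, the partner in the proximal cilium, differed from both between the ages. It was at 51.6 CPM in HC-like and 2.08 in SC-like cells at E14, a ratio of 24.8 (15.9 to 40.5). At P2 it was at 35.2 and 16.0, a ratio of 2.19 (1.86 to 2.60), and nonsensory epithelial-like cells held 14.5. The P2 ratio ran from 1.88 to 2.55 over 14 alternatives and was under 2 in 2 of them. Dnah8 and Dnah17 are known from sperm flagella. Dnah8 had 4 UMIs in E14 HC-like cells and 42 at P2 (3.14 CPM), against 5 in P2 SC-like cells, a ratio of 7.88 (3.12 to 25.5). In E14 mesenchymal-like cells Dnah8 had 93 UMIs (3.67 CPM), 58 of them in the cluster led by Wif1 and Trf. Dnah17 was under the minimum at both ages.

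Inner dynein arm heavy chains shape the ciliary waveform. Dnah10 and Dnah2 form the double-headed inner arm. Dnah10 was at 40.2 CPM in E14 HC-like cells and 0.452 in SC-like cells, a ratio of 88.9 (37.0 to 279), and at 18.7 and 0.877 at P2, a ratio of 21.3 (11.7 to 43.3). Dnah2 was at 8.48 and 0.633 at E14 and at 5.99 and 0.718 at P2, ratios of 13.4 (5.57 to 37.0) and 8.34 (4.18 to 18.9). Dnah6, a single-headed arm, was at 31.3 and 0.362 at E14, a ratio of 86.7 (32.6 to 325), and at 28.7 and 1.83 at P2, a ratio of 15.6 (10.3 to 24.9). The ratios of these genes were thus above 8 at both ages as classed here, but the Dnah2 intervals reached below that. Over the alternatives the Dnah2 ratio fell to 5.39 at E14 and 5.92 at P2.

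Dnah1, another single-headed arm, had the smallest ratio of the inner arm genes at E14. It was at 6.27 CPM in HC-like and 2.89 in SC-like cells at E14 (2.17, 1.13 to 4.02), and at 8.08 and 2.87 at P2 (2.81, 1.91 to 4.23). In nonsensory epithelial-like cells it was at 5.58 and 8.49, so its HC-like level was 1.12 times theirs at E14 (0.626 to 1.91) and 0.952 times at P2 (0.607 to 1.55). Dnah3, Dnah12 and Dnah14 were under the minimum at both ages.

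Dnah7a, Dnah7b and Dnah7c are near-identical copies on chromosome 1, and between 30.8% and 60.5% of the 50-base windows in the last 500 bases of each transcript also occur in the others. Their separate values are therefore uncertain. Their HC-like over SC-like ratios at E14 were 9.92, 2.64 and 57.1 (the last against 2 UMIs, 14.4 to 495), and at P2 18.9, 2.33 and 23.6. Summed, the copies were at 57.9 CPM in HC-like and 7.23 in SC-like cells at E14, a ratio of 8 (6.08 to 10.6). At P2 the sum was 55.7 and 6.62, a ratio of 8.41 (6.70 to 10.7), so the summed level differed little between the ages in either class.

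The 3 genes of the nexin-dynein regulatory complex were all high in hair cells. Drc1, on which assembly of the complex depends, was at 125 CPM in E14 HC-like and 2.44 in SC-like cells, a ratio of 51.4 (34.7 to 79.1). At P2 it was at 199 and 9.25, a ratio of 21.5 (17.8 to 26.1). Drc3 was at 137 and 5.33 at E14, a ratio of 25.7 (19.5 to 34.4), and at 126 and 10.6 at P2, a ratio of 11.9 (9.99 to 14.3). Drc7 was at 22.1 CPM in E14 HC-like cells and had 1 UMI in SC-like cells, a ratio of 245 (42.3 to 9826). At P2 it was at 34.2 and 1.67, a ratio of 20.4 (13.2 to 33.3).

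The largest ratios of the Cfap genes at E14 belonged to genes of several axonemal structures. Cfap65, a central pair protein, was at 45.7 CPM in HC-like and 0.452 in SC-like cells (101, 42.2 to 317). Cfap46, also of the central pair, was at 53.5 and 0.633 (84.5, 40.0 to 214). Cfap52, a microtubule inner protein, was at 170 and 2.17 (78.5, 52.1 to 124). Cfap126, known as Flattop, has been tied to basal body docking and kinocilium placement in the inner ear. It was at 331 and 4.25 (77.9, 58.1 to 107), and 1 of its 3 listed start sites carries the X-box shown above. Cfap206, a radial spoke docking protein, was at 175 and 2.44 (71.8, 48.7 to 110), and Cfap77, a microtubule inner protein, at 115 and 2.17 (53.2, 35.1 to 84.3). Cfap58 at 22.9 and 0.452 (50.6, 20.5 to 161) and Cfap44, part of the inner dynein tether, at 40.2 and 0.813 (49.4, 25.1 to 111) completed the 8.

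At P2 the same comparison placed Cfap73 first, an inner dynein arm modifier with 50 UMIs in HC-like cells and 1 in SC-like cells (46.9, 8.04 to 1889). Cfap46 (69.3 against 2.31 CPM, 29.96, 20.7 to 45), Cfap58 (32.5 against 1.12, 29.2, 17.2 to 53.8), Cfap44 (26.6, 17.2 to 43.3) and Cfap77 (26.4, 20.2 to 35.1) were again among the 8 largest. Cfap126 was at 430 against 18.7 (23.0, 20.2 to 26.4) and Cfap206 at 188 against 8.21 (22.9, 18.8 to 28.2). Cfap161, a microtubule inner protein, was at 105 against 3.91 CPM (26.7, 20.1 to 36.3). Cfap221, of the central pair, had 38 UMIs in HC-like cells and none in SC-like cells, 11.9-fold higher against 3 counts over the class, with a counting interval that starts at 9.20.

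Cfap161 was the exception among these at E14, at 55.7 CPM in HC-like and 9.40 in SC-like cells, a ratio of 5.92 (4.58 to 7.68). Of its 104 SC-like UMIs, 93 came from the cluster led by Zpld1 and Msx1. Without the SC-like clusters high in Zpld1, 4 UMIs remained and the ratio was 89.96. No interval was taken for that ratio, which rests on few UMIs and rises by construction, since the cluster with most of the SC-like UMIs is left out. All 233 of its nonsensory UMIs at E14 lay in the cluster led by Rspo3 and Lrp2, where its level was 37.3 CPM.

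Cfap97 and Cfap20, found in every class, had the smallest E14 ratios. Cfap97 was at 49.4 CPM in HC-like and 34.3 in SC-like cells at E14 (1.44, 1.18 to 1.76), and at 47.5 and 38.6 at P2 (1.23, 1.09 to 1.39). Cfap20, a microtubule inner protein, was at 195 and 98.3 at E14 (1.98, 1.78 to 2.20) and at 180 and 81.5 at P2 (2.21, 2.05 to 2.38). Cfap36, which binds the ciliary GTPase Arl3, was at 414 and 90.5 (4.58, 4.20 to 4.99) and at 446 and 119 (3.74, 3.53 to 3.96). Cfap43, a partner of Cfap44 in the tether, was at 54.6 and 15.5 at E14 (3.51, 2.8 to 4.4) and at 55.6 and 8.37 at P2 (6.64, 5.41 to 8.22). Cfap70, an outer arm-associated protein, had ratios of 3.85 (2.58 to 5.76) and 1.82 (1.49 to 2.24), its SC-like level being 4.88 at E14 and 11.7 at P2. Cfap57, at the base of an inner arm, had ratios of 5.33 (2.44 to 11.9) and 5.20 (2.71 to 11.0).

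Cfap74, a central pair protein, was at 24.8 CPM in P2 HC-like cells and 4.07 in SC-like cells, but had 88 UMIs (31.1 CPM) in nonsensory epithelial-like cells. The HC-like level was 0.798 times the nonsensory level (0.629 to 1.02). The signal lay in the cluster led by Nupr1 and Prss56, at 44.3 CPM. Of the remaining Cfap genes, Cfap45, Cfap53, Cfap54, Cfap61 and Cfap69 were called at both ages against SC-like cells and Cfap157 at P2 only, where it first reached the minimum. Cfap99 and Cfap100 were under it at both ages in this comparison.

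**Figure D2:**
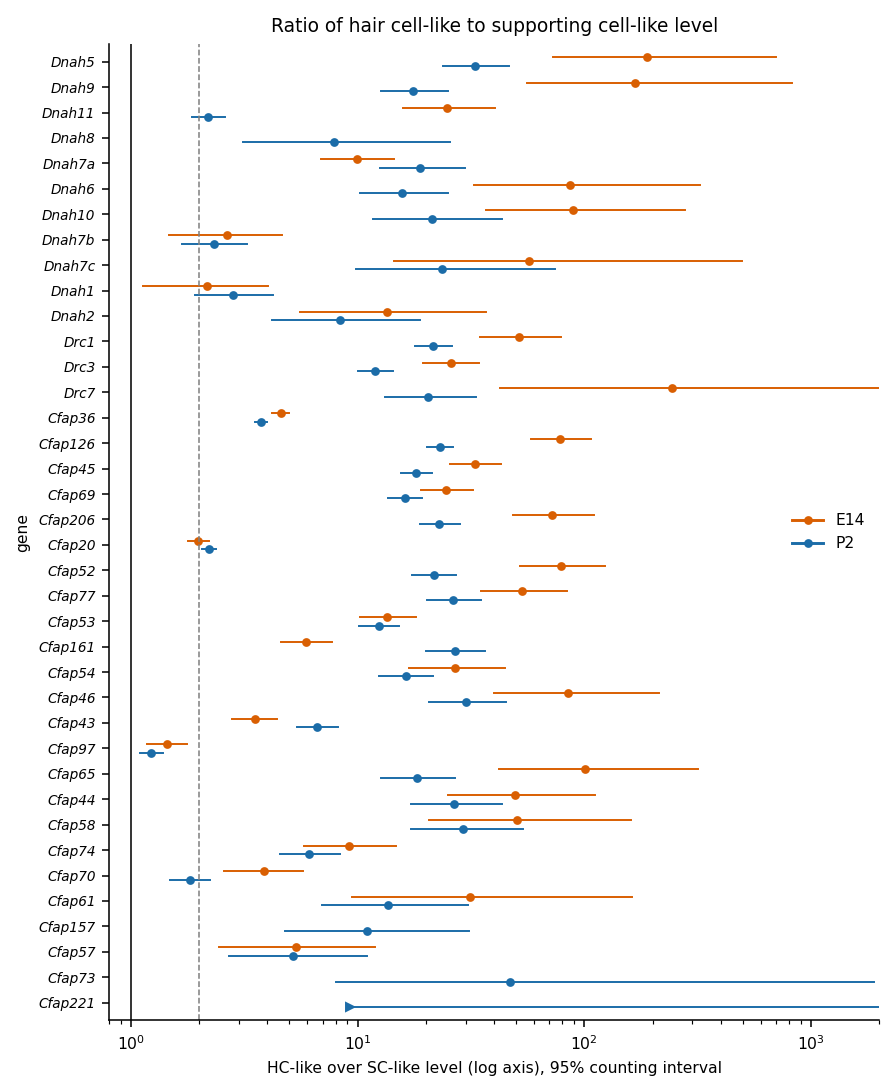
Ratio of HC-like to SC-like level for each gene with at least 20 UMIs in both classes together (log axis), with 95% counting intervals, E14 in orange and P2 in blue. The solid line marks equal levels and the dashed line 2-fold, intervals past 2000 run off the axis, the triangle for Cfap221 is the lower end of an interval with no SC-like UMI, and most P2 points lie to the left of their E14 points, an order that the summed ratio reverses when doublets are kept, under the automatic threshold and with gated hair cells.

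Between the ages, pooled HC-like levels of these genes were much alike. Their summed level at P2 was 1.14 times that at E14 (1.11 to 1.16), and the median ratio over 38 genes was 1.12. The HC-like cells were not the same mix at both ages. The cluster with the highest Atoh1 level held 170 of 212 of them at E14 and 253 of 1156 at P2. In that cluster these genes summed to 2372 CPM at E14 and 2314 at P2. The other E14 cluster summed to 4631 CPM, and the other P2 clusters to between 2737 and 4412. The pooled ratios thus compare different mixes, and the part of the mix in them was not tested. At least 2-fold higher at P2 were Cfap73 (3.38, 1.09 to 17, from 3 UMIs at E14) and Dnah8 (2.13, 0.773 to 8.18, from 4 UMIs), 2 of 38 where 8.28% of all genes were. At least 2-fold lower was Dnah10 (0.465, 0.370 to 0.588), 1 of 38 where 5.83% of all genes were. The counting interval lay above 1 for 13 genes, below 1 for 3 and held 1 for 22. The shares of all genes above were for the 2-fold rule. No share of all genes was taken for the interval rule, so its counts have no background to be read against. The count of genes higher at P2 was 26 with doublets kept, 26 with an automatic doublet threshold and 8 with gated hair cells, and that of genes lower at P2 was 0 in each of them. HC-like cells numbered 376, 371 and 218 at E14 and 1184, 1176 and 1147 at P2 in these alternatives, and the cause was not tested.

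Among the dynein and regulatory complex genes the P2 over E14 ratio in HC-like cells was 1.46 for Dnah5 (1.25 to 1.72), 1.59 for Drc1 (1.42 to 1.78) and 1.55 for Drc7 (1.18 to 2.06). It was 0.681 for Dnah11 (0.563 to 0.829). Dnah9 at 1.17, Drc3 at 0.922, Dnah6 at 0.914, Dnah2 at 0.706 and Dnah1 at 1.29 had intervals that held 1. Of the Cfap genes the largest ratios after Cfap73 were those of Cfap161 (1.88, 1.59 to 2.24), Cfap54 of the central pair (1.48, 1.24 to 1.78), Cfap58 (1.42, 1.09 to 1.89) and Cfap157, an effector of Foxj1 (1.42, 0.728 to 3.09). The smallest were those of Cfap57 (0.728, 0.420 to 1.33), Cfap221 (0.857, 0.407 to 2.02), Cfap52 (0.861, 0.777 to 0.954), Cfap20 (0.924, 0.840 to 1.02) and Cfap97 (0.962, 0.797 to 1.17).

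**Figure D3:**
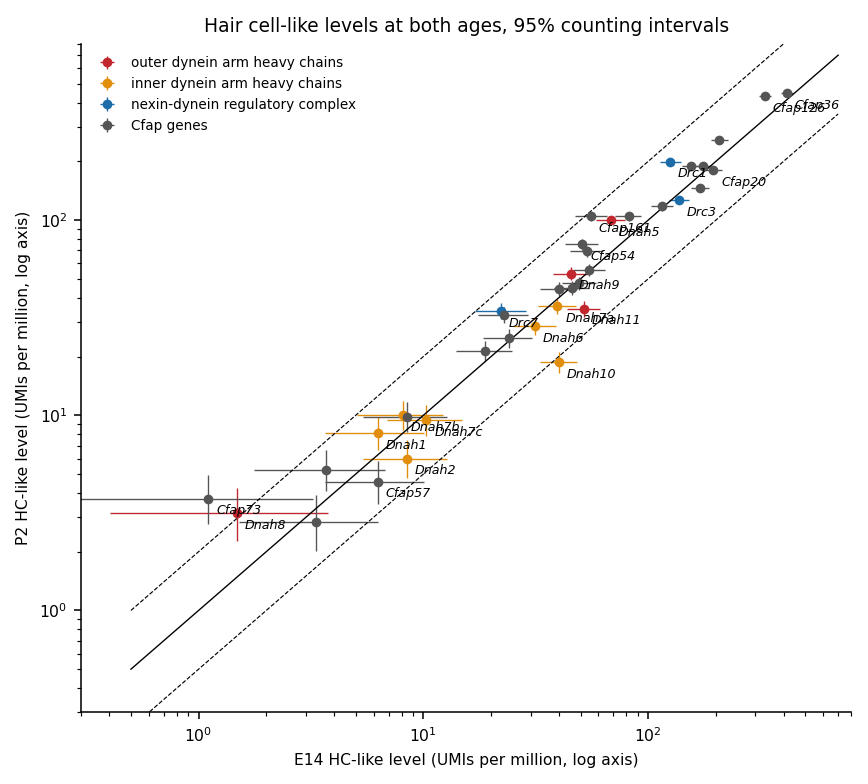
P2 against E14 level in HC-like cells for 38 genes (CPM, log axes), coloured by role, with 95% counting intervals. The solid line marks equal levels and the dashed lines 2-fold either way, Dnah10 lies below the lower line, Cfap73 and Dnah8 lie above the upper one at low counts, and the left end of the Cfap73 interval runs off the axis.

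Ratios to SC-like cells were lower at P2 for most genes as classed here. The order of the ages was not stable, since the summed ratio was 4.80 at E14 and 8.36 at P2 when doublets were kept, 4.80 and 8.40 under the automatic threshold, and 5.47 and 7.04 with gated hair cells. Over the 34 genes tested at both ages the HC-like over SC-like ratio was lower at P2 for 29, and the SC-like level was higher at P2 for 28. The median P2 over E14 ratio of these genes was 2.13 in SC-like and 1.09 in HC-like cells. The 16 hair cell markers showed the same pattern as the 34 genes. In SC-like cells 15 of them were higher at P2, with a median ratio of 2.23, and their summed SC-like level was 810 CPM at E14 and 1342 at P2, none being at 0. Their median HC-like over SC-like ratio was 28.2 at E14 and 16.3 at P2. Otof was at 8.04 CPM in E14 SC-like cells and 49.1 at P2. The part of RNA from hair cells in the SC-like levels was not tested. SC-like cells were also not the same mix at both ages. Without clusters high in Zpld1, 495 of the 823 SC-like cells remained at E14 and all 693 at P2. The SC-like differences between the ages are therefore not those of a single matched cell type, and the part of this mix was not tested.

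HC-like cells fell into 2 clusters at E14 and 6 at P2, named here by leading genes. Atoh1, the transcription factor that starts hair cell differentiation, was highest in the cluster led by Ccer2 and Grp at E14 (274 CPM, 170 cells) and in that led by Grp and Nnat at P2 (322, 253 cells). The other E14 cluster, led by Lbx2 and Pgam2 (42 cells), was at 24.6. In the Atoh1-highest clusters the 44 genes summed to 2372 CPM at E14 and 2314 at P2. The Lbx2 and Pgam2 cluster summed to 4631. At P2 the sums were 3914 in the cluster led by Gm4791 and Nppa (296 cells), 2737 in the Ocm and Lbx2 cluster (363 cells of 1683 median UMIs), 3232 in the Ocm and Ighm cluster (64 cells), 3371 in the Sema6d and Scg2 cluster (57 cells) and 4412 in the Spp1 and Scg2 cluster (123 cells).

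Compared with the other hair cells of its library, the Atoh1-highest cluster at E14 was at least 2-fold lower for 18 of 32 genes, where 12.3% of all genes were, and higher for 0, where 13.1% of all genes were. At P2 it was lower for 17 of 38, where 12.0% of all genes were, and higher for 0, where 6.23% were. The median ratio was 0.451 at E14 and 0.529 at P2, against 0.991 and 0.995 over all genes. These are descriptions of clusters, with no test. At P2 the ratio was 0.11 for Dnah6 (0.07 to 0.17), 0.12 for Cfap46 (0.09 to 0.16), 0.19 for Cfap161 (0.16 to 0.23), 0.26 for Cfap43 (0.21 to 0.33), 0.27 for Dnah10 (0.18 to 0.39) and 0.29 for Dnah5 (0.25 to 0.34). It was 1.09 for Drc3 (0.99 to 1.21), 0.92 for Cfap58 (0.75 to 1.13), 0.91 for Dnah7a (0.75 to 1.11), 0.90 for Cfap52 (0.82 to 1) and 0.90 for Cfap20 (0.82 to 0.98). The genes thus differed in how their levels stood in the Atoh1-highest cells. At E14 Dnah6 (0.19, 0.12 to 0.30) and Cfap46 (0.25, 0.18 to 0.35) were again lowest, whereas Dnah5 was at 0.85 (0.61 to 1.21).

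Dnah5 levels over the P2 clusters were 228 CPM in the Sema6d and Scg2 cluster, 212 in the Spp1 and Scg2 cluster, 141 in the Gm4791 and Nppa cluster, 43.8 in the Ocm and Ighm cluster, 38.6 in the Grp and Nnat cluster and 23.1 in the Ocm and Lbx2 cluster. Cfap46 ran from 348 in the Sema6d and Scg2 cluster to 11.9 in the Grp and Nnat cluster. The Sema6d and Scg2 cluster had the highest level for 20 of 38 genes and the lowest for 10, among them Cfap126 (80.1 CPM, against 560 in the Spp1 and Scg2 cluster), Drc3 (40.0 against 88.4) and Cfap52 (28.0 against 133). Its median depth was 4345 UMIs per cell, against 13490 for all P2 HC-like cells. Over the 37 genes above 0 in every P2 hair cell cluster, the highest cluster was a median of 5.92 times the lowest, and at E14 it was 2.22 times over 32 genes. These 2 values cannot be compared between the ages, since such a ratio tends to grow with the number of clusters, 6 at P2 and 2 at E14. The shallow Ocm and Lbx2 cluster, with a median of 1683 UMIs per cell, was the lowest for 16 of the 38 genes.

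**Figure D4:**
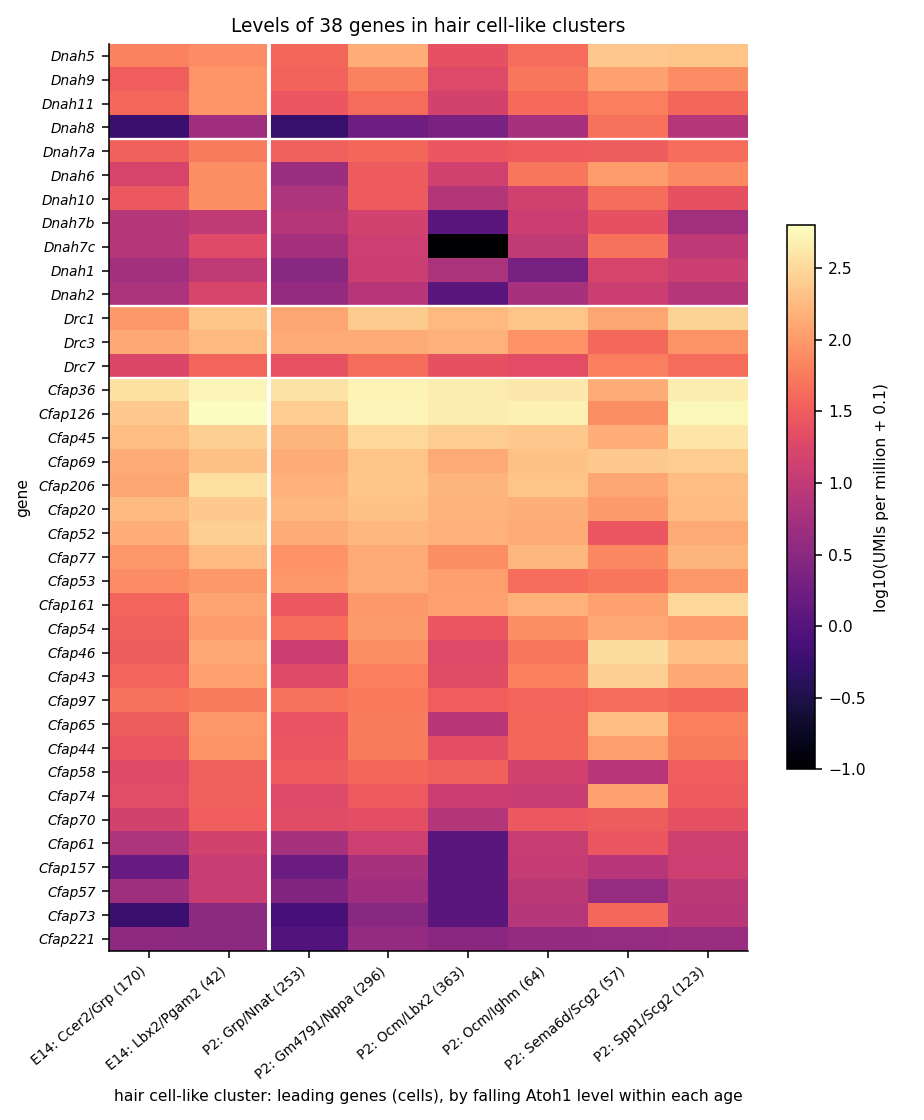
Levels of 38 genes (rows) in the 2 E14 and 6 P2 HC-like clusters (columns, by falling Atoh1 level within each age, with leading genes and cell numbers), as log10 of CPM plus 0.1. Cfap46 and Dnah6 are dark in the Grp and Nnat cluster and bright in the Spp1 and Scg2 and the Sema6d and Scg2 clusters, Dnah7c is at 0 in the Ocm and Lbx2 cluster, and Cfap36, Cfap126 and Drc1 are bright in most columns.

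Other genes of the axoneme were also higher in hair cells. Of the remaining dynein arm and docking genes, 13 of 13 tested were at least 2-fold higher in HC-like than SC-like cells at E14 and 13 of 13 at P2, with median ratios of 22.6 and 10.5. Dnaic2, an intermediate chain, was at 242 CPM in HC-like and 12.4 in SC-like cells at P2 (19.5), the docking gene Ccdc114 at 211 and 24.9 (8.48) and the light chain Dnal4 at 199 and 56.9 (3.5). The remaining regulatory complex and ruler genes were called in 8 of 8 and 10 of 10, with medians of 22.4 and 13.5. At P2 Ccdc39 and Ccdc40, which form the molecular ruler of the axoneme, were at 227 against 17.3 (13.1) and 130 against 9.41 (13.8), and Iqcg at 191 against 12.7 (15.0). Radial spoke and central pair genes gave 17 of 17 and 18 of 18, with medians of 19.8 and 10.5, among them Nme5 (289 against 41.1 at P2, 7.04), Spag6l (181 against 9.33, 19.4) and Spef1 (169 against 9.09, 18.6). Tektins and microtubule inner proteins gave 15 of 15 and 16 of 16, with medians of 18.3 and 10.3, among them Tekt1 (587 against 79.1, 7.42), Tekt2 (520 against 36.5, 14.2) and Enkur (206 against 17.9, 11.5).

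Factors that assemble dynein arms in the cytoplasm were called in 13 of 14 at both ages, with medians of 8.26 and 6. Their 3 highest at P2, Ruvbl1 (3.25), Pih1d2 (9.57) and Ruvbl2 (2.51), include the broadly used Ruvbl ATPases. Genes that also serve primary cilia had smaller medians. Intraflagellar transport genes, which carry cargo along all cilia, were called in 25 of 31 at both ages, with medians of 3.27 and 2.83. Ift74 was at 374 against 88.2 at P2 (4.24), Ift22 at 366 against 59.1 (6.19) and Ift20 at 305 against 138 (2.20). BBSome and transition zone genes were called in 14 and 13 of 23, with medians of 3.02 and 2.27, Ahi1 (3.85), B9d1 (2.67) and Arl6 (4.89) being the 3 with the highest P2 level. Hair bundle and mechanotransduction genes, given for scale, were called in 24 of 28 and 26 of 30, with medians of 36.9 and 15.0, and 1 and 2 of them were at least 2-fold lower. Espn (23.8 at P2), Cib2 (9.91) and Lhfpl5 (26.5) led that list by level. Myo7a, Xirp2, Espn, Cib2, Ush1c and Tmc1 of that list also served to name the hair cell clusters, so its counts and medians follow in part from the naming.

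**Figure D5:**
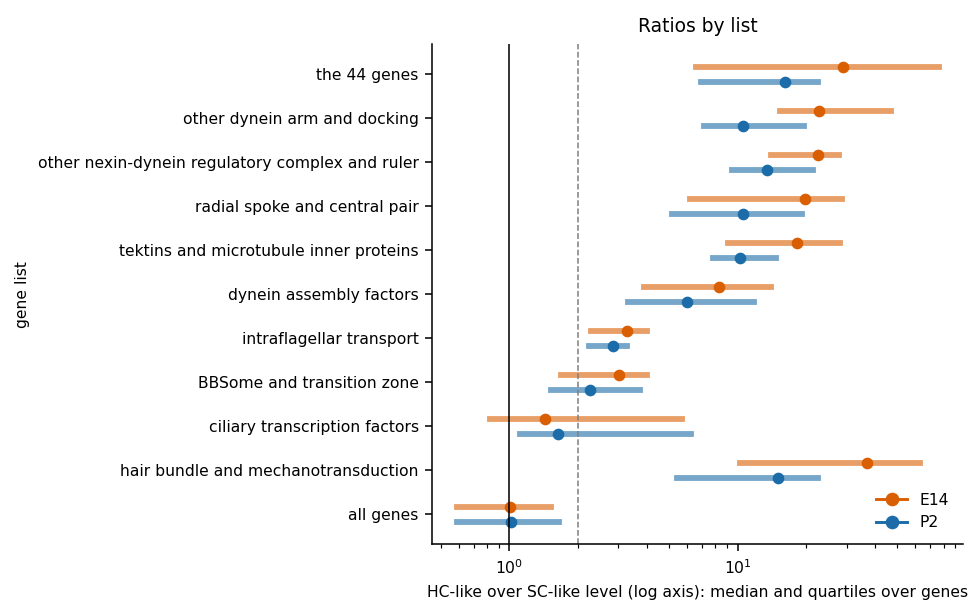
HC-like over SC-like ratio by gene list (log axis), E14 in orange and P2 in blue, where points are medians and bars run from the lower to the upper quartile over genes. The axonemal lists have medians between 10.3 and 29.0, intraflagellar transport and BBSome lists between 2.27 and 3.27, and all genes 1.01 at both ages.

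Ciliary transcription factors were mixed, with 4 of 10 called at E14 and 5 of 12 at P2 and medians of 1.44 and 1.64. Foxj1 was at 209 CPM in E14 HC-like and 8.41 in SC-like cells (24.9, 19.9 to 31.3), and at 154 and 18.2 at P2 (8.46, 7.37 to 9.74). Rfx2 was at 15.1 and 2.26 at E14 (6.69, 3.97 to 11.5) and at 7.71 and 1.36 at P2 (5.68, 3.38 to 10.1). Rfx3 was at 55.7 and 15.9 (3.5, 2.8 to 4.37) and at 53.5 and 14.6 (3.67, 3.11 to 4.34). Rfx1, Rfx4, Rfx5 and Rfx7 were on the same list and are not described here, so the values of Rfx2 and Rfx3 do not stand for the family. Besides Foxj1, the genes named by level were Ybx3, at 257 against 224 at P2 (1.15), and Fank1, at 62.3 against 4.63 (13.5). E2f5 was at 17.7 against 43.8 at P2 (0.405, 0.346 to 0.473). A list of 10 genes used by multiciliated cells, which includes Foxj1, gave 1 of 1 tested genes called at E14 and 2 of 2 at P2. The second was Ccno, at 3.37 CPM in P2 HC-like and 0.638 in SC-like cells (5.28, 2.46 to 13). The others, Deup1, Tmem212, Ccdc153, Ccdc78, Mcidas, Gmnc, Cdc20b and Sntn, were under the minimum at both ages, so no class difference was read for them. Mcidas, Gmnc, Cdc20b and Sntn, named after their values were seen, had no UMI in HC-like cells at either age. The list as a whole was thus mostly not measurable, and its tested genes were higher in HC-like cells.

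The RFX half-site was found in 8 of the 21 genes with a promoter that were at least 10-fold higher in HC-like than SC-like cells at P2 (38.1%) and in 4 of the other 16 (25%). It was found in 2 of 23 hair bundle and mechanotransduction genes (8.70%) and in 14.1% of all genes. The X-box genes Cfap126, Cfap206 and Cfap77 were all among the 21, of which they made 14.3%, where 2.16% of all genes had an X-box. The forkhead motif was found in 0 of the 21 and 3 of the 16, and in 4.05% of all genes. The groups are small and were split by the measured ratio, and a link between motif and level was not tested.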

How the data were processed

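Single-cell RNA sequencing was done by the authors on 1 library per age. The authors deposited unscaled counts of UMIs for every gene and barcode, made with Cell Ranger 3.1.0. Which genome they counted on is unclear, since GRCm39 stands in the methods but mm10 beside it in the labels. The counts carry no coordinates. The Seurat 4.1.1 steps of the study were not repeated. The files hold 15636 (E14) and 6251 (P2) barcodes with medians of 5605 and 3068 UMIs. The study aimed for more cells than this per library, and 11588 and 4081 barcodes had at least 500 genes, 1000 UMIs and no more than 15% mitochondrial UMIs.

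From these, the barcodes with the highest simulated-doublet scores (2 simulations per cell) were dropped, 0.8% for every 1000 barcodes, which removed 1450 and 204. Each library was then clustered alone on 2000 variable genes, 30 components and 15 neighbours (Leiden, resolution 1, leidenalg 0.10.2, Python 3.11.15), without the 44 genes or any listed gene among the variable genes. Class names came from marker lists by a rule written once the marker tables had been seen. A marker had to be present in 10% of cells, 2-fold over the rest with 5 CPM added, and at 20% or more of its top cluster. A class needed 3 such markers with no tie and no other class ahead among the 10 leading genes. Clusters under 33% of the library's median depth needed a marker among their leading genes, and clusters led by 5 or more cell-cycle genes stayed unnamed.

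The genes and lists were chosen with earlier results of these data known. UMIs were summed per class. No replicates exist, so no test was run, and scripts were tested on simulated data. Text names follow a rule: all Dnah and Drc genes over 20 UMIs, the 8 largest and 4 smallest Cfap ratios at each age, the 5 largest age ratios each way, and the 3 highest genes of each list. Rfx2 and Rfx3 were named outside this rule. Dnah8 in mesenchymal-like cells, Cfap74, E2f5, Otof and the multiciliated genes but Foxj1 were named after their values were seen. Promoter starts came from RefSeq, and gene types and overlaps from GENCODE M21 (GRCm38), where all 44 genes are protein coding and none overlaps another gene of the files on its own strand. Odad1 to Odad4, Lrrc48, Ccdc164, Pierce1, Pierce2, Spmip6, Dnaaf4, Heatr2 and Tctn2 were not matched under those symbols.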

Additional observations from a re-analysis of the deposited data

Results flagged for a closer look

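Between E14 and P2 3 genes had counting intervals on opposite sides of 1 in HC-like and SC-like cells. No test of these differences is possible with 1 library per age. The P2 over E14 ratio of Cfap52 was 0.861 in HC-like cells and 3.12 in SC-like cells. That of Dnah11 was 0.681 and 7.71. Cfap161 went the other way, at 1.88 in HC-like and 0.416 in SC-like cells, and 93 of its 104 SC-like UMIs at E14 lay in the Zpld1 and Msx1 cluster. Hair cell markers in SC-like cells had a median P2 over E14 ratio of 2.23, and their part in the first 2 of these genes was not tested. Nor was the part of the differing mix of SC-like clusters, or of HC-like clusters, at the ages.

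At P2, 3 clusters that were not given a class, and so entered no comparison, held more of the 44 genes than the 412 CPM of SC-like cells. A cluster of 114 cells led by Csmd1 and Ralyl, with 6 hair cell markers and a median of 1493 UMIs per cell, was at 4441. A cluster of 183 cells led by Nckap5 was at 972, and one of 537 cells led by AY036118 and Gm42418 was at 814, with medians of 1299 and 1404 UMIs per cell.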

How the results depend on the processing

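No paired analysis was possible because each age has 1 library, and no replicate could be left out. The counts of genes called against SC-like and nonsensory epithelial-like cells at both ages and mesenchymal-like cells at E14 stayed within 1.5 times their values in all 16 alternatives, from 22 to 36 and from 30 to 38 against SC-like cells. The count against mesenchymal-like cells at P2 was 8 with cells thinned to 4000 UMIs and 17 to 21 in 12 others. No P2 mesenchymal-like cell was left under the stricter cell filter, at Leiden resolution 0.5 or without shallow clusters. Genes at least 2-fold higher at P2 than E14 in HC-like cells numbered 26 with doublets kept, 26 with the automatic doublet threshold, 8 with gated hair cells and 0 with a minimum of 100 UMIs. Genes at least 2-fold higher at E14 numbered 0 with doublets kept, the automatic threshold, no cell filter, gated hair cells, unnamed clusters with 3 markers named, or the mean of per-cell levels. The summed HC-like over SC-like ratio at E14 and P2 was 4.80 and 8.36 with doublets kept, 4.80 and 8.40 with the automatic threshold, 8.44 and 7.03 with the stricter filter, 8.80 and 8.31 at Leiden resolution 0.5, 5.47 and 7.04 with gated hair cells, and 24.4 and 15.1 without Cfap20, Cfap36 and Cfap97. It was 9.11 at P2 with no cell filter and 8.16 at E14 with the mean of per-cell levels. The E14 ratio was thus above the P2 ratio as reported but below it with doublets kept, the automatic threshold or gated hair cells. The causes were not tested. Of single genes, 28 of 34 at E14 and 33 of 38 at P2 were at least 2-fold higher than in SC-like cells under all 14 alternatives that rebuilt them, and none fell below 1 in any. Dnah1 (down to 1.25), Dnah7b (1.07), Cfap43 (1.83) and Cfap70 (1.97) lost the call at E14 in some, and Dnah11 (1.88), Dnah7b (1.90) and Cfap20 (1.98) at P2. Naming unnamed clusters and dropping the 3 genes were chosen after seeing the data. Genes with few SC-like UMIs have wide intervals, so their order within an age is not resolved.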

Other observations

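Outside the epithelium, the summed level of the 44 genes at E14 was 302 CPM in glial-like cells (282 to 324), 234 in endothelial-like (203 to 268), 119 in immune-like (103 to 136) and 23.9 in red blood cell-like cells (10.3 to 47.0). Cfap20 reached 179 CPM in the glial-like cluster (163 to 196), close to its 195 in HC-like cells. Cfap43, a tether protein of the inner dynein arm, was at 24.7 (20.9 to 29.0) in the E14 nonsensory epithelial-like cluster led by Sfrp5 and Wnt3, against 54.6 in HC-like cells.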
